A study of Homo sapiens with 17 samples.

Results

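GFP-mCherry+ cells were compared with GFP-mCherry- (double-negative) cells at day 40 of differentiation, with 3 libraries of each population. The mCherry+ libraries were numbered 11, 14 and 17 and the double-negative ones 12, 15 and 18, which together are 6 of the 17 libraries of the series. All genes with at least 1 FPKM (fragments per kilobase of transcript, scaled to the mapped fragments of the library) in at least 2 of these 6 libraries were compared, 14011 of the 20218 genes in the table. Of the other 6207 genes, 1595 were listed at 0 in all 6 libraries. A total of 419 genes were included with exactly 2 libraries at or above 1 FPKM (median of their highest value 1.749 FPKM), and 588 were left out with exactly 1 (median 1.292 FPKM).

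All cells came from H9, an established human embryonic stem cell line, in a derivative that the labels call SHOX2, and every group carries its GFP and mCherry reporters. SHOX2 encodes a transcription factor of the sinoatrial node. Which gene drives mCherry is not in the labels; it is assumed here to be MYH6, which encodes the heavy chain of atrial myosin. Cells of all groups were exposed to CHIR99021, BMP4 and Activin A. The protocol then splits into a cardiomyocyte branch with XAV939 and a sinoatrial branch with cucurbitacin, retinoic acid, SU5402, XAV939, a tyrphostin and chidamide, and does not say which branch supplied each sorted population. The other groups used here are GFP-mCherry+ and GFP-mCherry- cells of day 25 (3 libraries each), and GFP+mCherry+ cells of day 40 (2 libraries), which are given as levels only. Whether the 3 libraries of a group are independent cultures is not stated. The p-values therefore reflect only how far libraries of the same group differ from each other, and that spread can be technical. It was estimated over all 17 libraries in 6 groups, not only over the libraries compared. A population that lacks a marker because fewer of its cells are of a type cannot be told apart in bulk RNA from one whose cells hold less of that RNA.

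Cardiomyocytes contract through sarcomeres, in which thick filaments of myosin slide along thin filaments of actin anchored at the Z-disc. Calcium released from the sarcoplasmic reticulum switches the thin filament on through the troponins, and mitochondria that fill much of the cell supply the ATP. Cardiac differentiation of pluripotent stem cells also yields non-myocytes, among them fibroblast-like, epicardial, epithelial, endodermal and endothelial cells, which a reporter of a myocyte gene leaves in the negative fraction.

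The libraries separated by population. The first principal component held 65.1% of the variance, with all 3 mCherry+ libraries at positive and all 3 double-negative libraries at negative scores, and the next held 14.9%. Correlations of log2 values were 0.940 to 0.963 within a population and 0.828 to 0.917 between them. The sums of FPKM were 572230 to 648144, and 12944 to 13503 genes reached 1 FPKM, and the table gives no read depth. Libraries 12 and 14 stood apart. Library 12 lay nearest to the mCherry+ libraries on the first component, with a score of -33.25 against -64.60 and -61.29 for libraries 15 and 18. Library 14 had the fewest genes above 0, 16598, and scored -41.11 on the next component, where the other mCherry+ libraries scored 21.67 and 20.49. For 15 genes, MYH6 among them, 1 library was listed at 0 while the others of its group held at least 5 FPKM.

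Cardiomyocyte markers were on the side of the mCherry+ label. In this and all later sentences, values by library are in the order 11, 14, 17 for mCherry+ and 12, 15, 18 for double-negative cells. TNNT2, cardiac troponin T (ENSG00000118194, chr1 201328136 to 201346890, hg19), stood at 7001, 5404 and 6929 FPKM in the mCherry+ libraries and at 796, 157 and 177 FPKM in the double-negative ones. MYH6 (ENSG00000197616, chr14 23851199 to 23877486) was listed at 628, 520 and 0 FPKM against 41.9, 6.64 and 4.76. The 0 in library 17 stood beside 14488 FPKM of MYL7, the atrial myosin light chain, in the same library. The log2 difference of MYH6 was 2.48 ± 1.62 (SE, adjusted p 0.256, limma), and 5.53 ± 0.60 (adjusted p 1.26e-05) with that 0 set to missing. SHOX2 (ENSG00000168779, chr3 157814948 to 157824292), the gene behind GFP, was at 1.39, 2.41 and 1.81 FPKM against 1.32, 0.253 and 0.447. Its difference was not past the threshold (0.82 ± 0.32, adjusted p 0.063), and both GFP- populations lay far under the 74.3 FPKM mean of the GFP+mCherry+ cells. Of 8 cardiomyocyte markers 7 were higher in mCherry+ cells, all but MYH6, with sums of 14434 to 25026 FPKM against 562 to 2405.

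Markers of other cell types lay mostly on the double-negative side. Fibroblast markers summed to 1586 to 5642 FPKM in mCherry+ and 9308 to 18712 in double-negative libraries (7 of 8 lower in mCherry+, all but PDGFRA). Epicardial markers (26.8 to 39.2 against 205 to 253 FPKM, 4 of 4 lower), epithelial markers (43.2 to 120 against 368 to 438, 4 of 4 lower) and endoderm and liver markers (123 to 289 against 679 to 1471, 3 of 4 lower) did not overlap between the populations. The endoderm and liver sums were mostly AFP (116, 279 and 117 against 645, 1380 and 1110 FPKM). HNF4A of these markers, and TCF21 of the fibroblast markers, reached 1 FPKM only in double-negative libraries. Endothelial markers were low in both, at 1.88 to 8 against 8.18 to 23.2 FPKM, and VWF was at most 0.101 FPKM in any library. The smooth muscle sums overlapped (773 to 2244 against 500 to 1454 FPKM, 3 of 4 higher in mCherry+). Of these 3, ACTA2 (1.37 ± 0.48, adjusted p 0.0378) was not called without library 14, 17, 12 or 15 (adjusted p 0.0623 to 0.16). The macrophage sums (19.8 to 31.3 against 11.6 to 23.6 FPKM) and the neuronal sums (5.48 to 32.5 against 13.8 to 72.5) overlapped with no marker called, and SOX10 and ELAVL4 were near 0. Pluripotency markers summed to at most 0.445 FPKM in mCherry+ and 2.16 FPKM in double-negative libraries. The part of these other cell types in the differences below was not tested.

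Over all genes tested, 4729 (33.8%) were called at an adjusted p under 0.05, 1985 higher (14.2%) and 2744 lower (19.6%) in mCherry+ cells, and 6058 had an unadjusted p under 0.05. Differences are on the log2(FPKM + 1) scale, mCherry+ minus double-negative, with the standard error of limma's moderated fit and for genes of low FPKM the true fold is larger than this scale shows. At least 2-fold were 1028 of the higher and 1596 of the lower genes, and at least 8-fold were 125 higher and 9 lower. Lower genes were more numerous with FPKM as deposited, but not after other scaling: 2419 were higher and 2439 lower after median-of-ratios scaling, and 2343 and 2330 after quantile normalization. The 3 and 3 libraries did not overlap for 5685 genes (40.6%). A total of 102 genes reached 1 FPKM in all mCherry+ and no double-negative library, and 258 the reverse. The median difference over all genes tested was -0.08.

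The 12 genes described here had the largest called differences on the higher side among genes whose 3 and 3 libraries do not overlap and whose mCherry+ mean is 5 FPKM or more. NPPA, which encodes atrial natriuretic peptide (ENSG00000175206, chr1 11905766 to 11908402), had the largest, at 1177, 1359 and 1758 FPKM against 79.7, 11.7 and 16.3 (5.76 ± 0.50, adjusted p 4.57e-06). ACTC1, cardiac alpha-actin (ENSG00000159251, chr15 35080297 to 35088340), stood at 5967, 8392 and 12738 FPKM against 689, 98.9 and 183 (5.21 ± 0.54, adjusted p 1e-05). Library 12 was the highest of the double-negative libraries for both. MYOZ2, a calcineurin-binding protein of the Z-disc (ENSG00000172399, chr4 120056939 to 120108944), was at 148, 127 and 145 FPKM against 16.4, 1.45 and 1.58 (4.88 ± 0.58, adjusted p 2.22e-05). The others were CMTM5 (5.01 ± 0.44), the oxygen store myoglobin MB (4.97 ± 0.75), the Z-disc sensor CSRP3 (4.95 ± 0.55), the calcium pump inhibitor PLN (4.94 ± 0.55), muscle creatine kinase CKM (4.93 ± 0.78), the splicing regulator RBM24 (4.83 ± 0.63), the myosin-associated methyltransferase SMYD1 (4.76 ± 0.59), the Z-disc scaffold LDB3 (4.71 ± 0.46) and the M-band protein MYOM1 (4.66 ± 0.56).

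**Figure D1:**
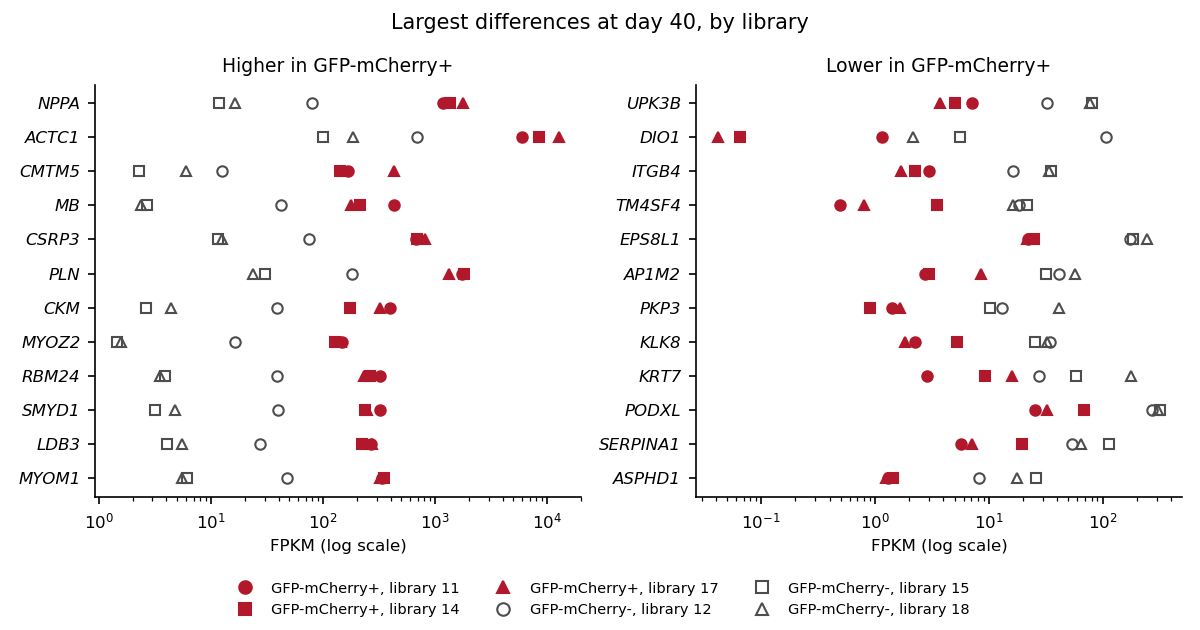
FPKM in each of the 6 libraries (logarithmic axes) for the 12 genes with the largest differences in each direction, filled symbols for GFP-mCherry+ and open symbols for GFP-mCherry- libraries, with 1 symbol shape for each library. Genes were chosen to have filled and open symbols that do not overlap; library 12 (open circles) is the highest double-negative library for every gene on the left, as in NPPA at 79.7 FPKM against 11.7 and 16.3.

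The promoters of 3 of these genes are shown because they hold motifs bound by the muscle factors SRF (the CArG box) or MEF2 (the MEF2 element), or the TATA box TATAAA. They are the 250 bases before the transcription start, 5′ to 3′ on the gene's strand, from RefSeq on GRCh38.p14, with the motifs in capitals. ACTC1 (chr15:34795550-34795799, minus strand) has a CArG box 109 to 100 bases and a TATA box 31 to 26 bases before the start. MYOZ2 (chr4:119135582-119135831, plus strand) has an MEF2 element 52 to 43 bases before it, and NPPA (chr1:11847784-11848033, minus strand) a TATA box 29 to 24 bases before it.
ACTC1: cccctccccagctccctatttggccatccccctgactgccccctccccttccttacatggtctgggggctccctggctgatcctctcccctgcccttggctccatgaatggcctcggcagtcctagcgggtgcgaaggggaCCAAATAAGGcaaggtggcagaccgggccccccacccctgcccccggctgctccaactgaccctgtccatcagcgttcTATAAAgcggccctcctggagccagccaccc
MYOZ2: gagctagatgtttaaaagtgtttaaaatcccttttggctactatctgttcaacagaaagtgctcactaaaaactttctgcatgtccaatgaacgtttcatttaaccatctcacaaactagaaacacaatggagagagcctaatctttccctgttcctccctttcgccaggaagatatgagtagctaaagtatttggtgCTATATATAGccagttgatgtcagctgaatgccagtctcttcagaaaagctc
NPPA: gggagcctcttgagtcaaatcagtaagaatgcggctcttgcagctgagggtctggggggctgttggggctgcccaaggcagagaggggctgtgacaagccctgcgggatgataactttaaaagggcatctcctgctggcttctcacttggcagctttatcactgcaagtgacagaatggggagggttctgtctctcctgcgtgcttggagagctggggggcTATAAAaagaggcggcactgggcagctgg
A match is a run of letters and does not show that a factor binds there.

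Motifs were searched on both strands of the 300-base promoters of the RefSeq table, which matched 1459 of the 1985 higher genes (2325 promoters) and 2002 of the 2744 lower genes (3062 promoters). The MEF2 element was in 1.25% of the promoters of higher genes (29), 0.327% of those of lower genes (10), 0.405% of those of all genes tested (63 of 15556) and 0.572% of the whole table. For the CArG box the shares were 1.63%, 1.34%, 1.24% and 1.29%. TATAAA was in 8.69% of higher, 8.36% of lower and 5.72% of uncalled promoters, and in 11.5% of the whole table. The Z-disc and costamere genes held an MEF2 element in 6 of 22 genes with a promoter and the thick filament genes in 2 of 8, while the thin filament genes, also of the sarcomere, held none in 12. Complex I, calcium cycling, collagen and epithelial genes held none in 32, 19, 17 and 11. Over all genes tested, 61 of 10474 with a promoter (0.582%) held one, so lists of these sizes would often hold none. A CArG box was in 3 of 22 Z-disc, 2 of 8 thick filament, 2 of 12 thin filament and 2 of 32 complex I genes. It was in no calcium cycling, collagen or epithelial gene, and in 1.76% of all genes tested. Of the 12 higher genes named above, 11 had a promoter in the table, 3 with a CArG box, 1 with an MEF2 element and 3 with a TATA box. Of the 12 lower genes named further below, 6 had a promoter, 0 with a CArG box, 0 with an MEF2 element and 1 with a TATA box. A gene was counted if any of its promoters held the motif. No test was made of these shares.

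Thick filament genes carried the largest median of the lists, 4.21, with 13 of 15 genes tested higher and none lower (1 more was under the minimum). Together these 15 genes made up 3.8%, 2.01% and 3.12% of the FPKM sum of the mCherry+ libraries and 0.378%, 0.0901% and 0.0966% of that of the double-negative ones. MYL7 (ENSG00000106631, chr7 44178463 to 44180931) was at 16068, 7773 and 14488 FPKM against 1423, 342 and 418, a log2 difference of 4.37 ± 0.47 (adjusted p 1.09e-05). MYL4, the atrial essential light chain, was at 3640, 1701 and 2754 FPKM against 313, 83.6 and 63.1 (4.43 ± 0.49). The ventricular light chain gene MYL3 (1966, 562 and 933 FPKM against 172, 21.3 and 20.6, 4.53 ± 0.77) and the ventricular heavy chain gene MYH7 (797, 382 and 368 against 86.9, 12.9 and 13.4, 4.21 ± 0.69) differed as much. The giant spring protein titin, TTN, was nearly level among the mCherry+ libraries, at 67.9, 65.3 and 62.3 FPKM against 8.09, 1.08 and 1.83 (4.13 ± 0.40). UNC45B, a chaperone of myosin, differed by 4.41 ± 0.46. MYH6 was among the 2 genes not called.

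Of 14 thin filament genes 12 were higher and 1 lower (median 3.46). TNNT2 differed by 4.51 ± 0.46 (adjusted p 9.43e-06), 22.7-fold on the FPKM + 1 scale. TNNI1, the slow skeletal and fetal troponin I, was at 3058, 1452 and 1845 FPKM against 394, 73.1 and 81.3 (3.91 ± 0.56), and TNNI3, the troponin I of the adult heart, at 104, 53.1 and 156 FPKM against 28.2, 17.5 and 25.5. The fetal form was therefore the more abundant of the pair in every library, at FPKM, which is per length. NEBL (3.67 ± 0.36), which encodes nebulette at the Z-disc end of actin, and FHOD3, a formin that builds actin filaments (2.67 ± 0.25), were higher as well. TPM1, a tropomyosin also found in non-muscle cells, differed less, at 4466, 4545 and 5866 FPKM against 1836, 1207 and 1475 (1.73 ± 0.24). TNNT1, troponin T of slow skeletal muscle (ENSG00000105048, chr19 55644162 to 55660722), went the other way, at 20.9, 23.5 and 45.5 FPKM against 153, 155 and 258 (-2.66 ± 0.36, adjusted p 6.29e-05). All 3 double-negative libraries were above all 3 mCherry+ libraries for TNNT1, whose difference at day 25 was -2.75. NEB, the skeletal muscle nebulin, was at 2.18 FPKM or less in all libraries and was not called.

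Of 29 Z-disc and costamere genes 25 were higher and 2 lower (median 2.93). ACTN2, the alpha-actinin that crosslinks actin at the Z-disc (ENSG00000077522, chr1 236849754 to 236927931), was at 624, 329 and 532 FPKM against 55.6, 12.9 and 13.6 (4.41 ± 0.52, adjusted p 2.07e-05). The integrin-binding chaperone gene ITGB1BP2 (4.35 ± 0.42), SYNPO2L (3.88 ± 0.38) and the small heat shock proteins CRYAB (3.78 ± 0.40) and HSPB7 (3.71 ± 0.50) also rose. CRYAB reached 838, 734 and 1066 FPKM against 149, 34.3 and 47. PDLIM5, a PDZ-LIM protein of the Z-disc, was tightly grouped, at 313, 306 and 310 FPKM against 83.3, 52.2 and 53 (2.32 ± 0.22). Among the lower genes was SGCD, delta-sarcoglycan of the membrane complex around dystrophin. SGCD (-0.93 ± 0.29, adjusted p 0.0226) was not called without library 11 (-0.67, adjusted p 0.109) or library 18 (-0.72, adjusted p 0.106). Dystrophin itself, DMD (0.28 ± 0.28, adjusted p 0.477), and filamin C, FLNC (0.50 ± 0.27, adjusted p 0.166), were not called.

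**Figure D2:**
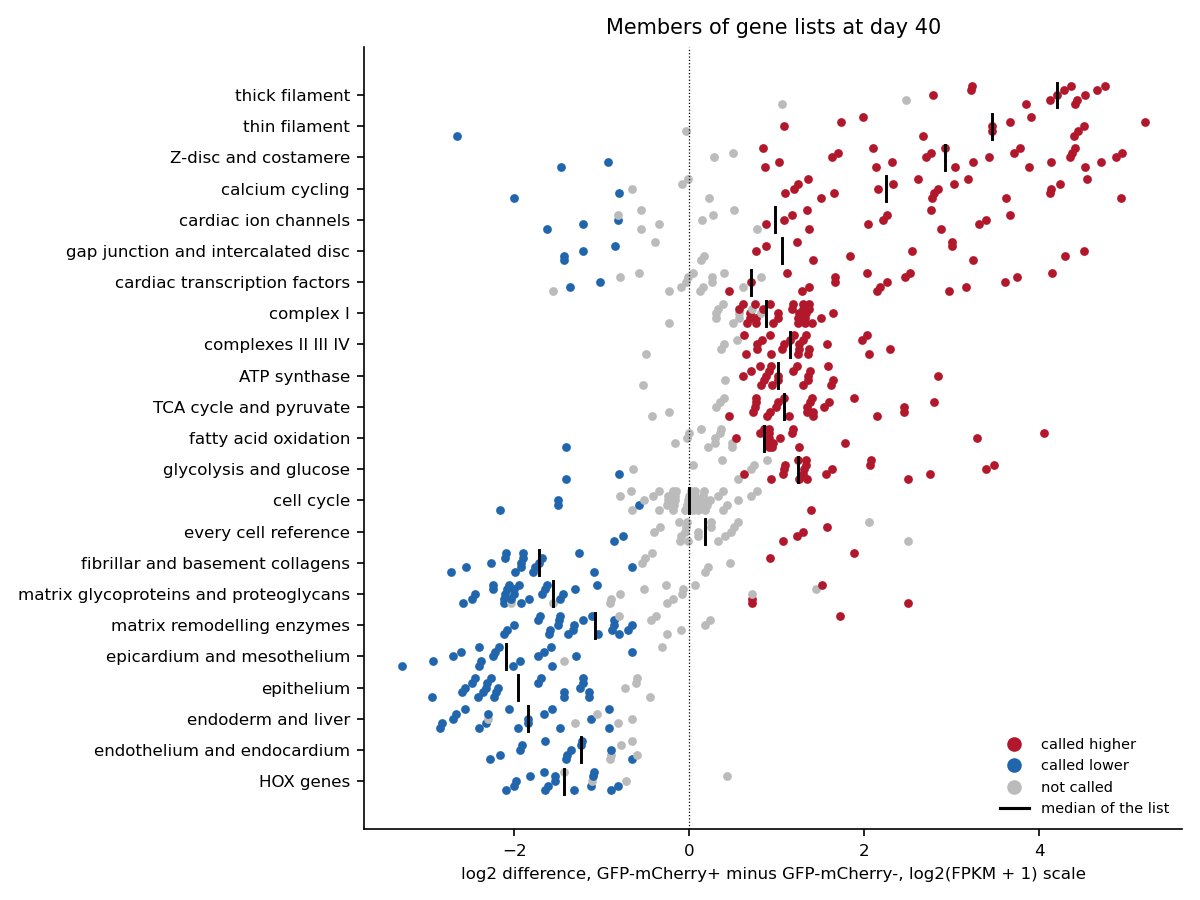
Difference at day 40 of every tested member of 23 gene lists on the log2(FPKM + 1) scale, GFP-mCherry+ minus GFP-mCherry-, 1 point for each gene, coloured by its call, with a bar at the list's median. Medians run from 4.21 (thick filament) through -0.01 (cell cycle) to -2.10 (epicardium and mesothelium), beside -0.08 over all genes tested.

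Calcium cycling genes were higher in 20 of 26 and lower in 2 (median 2.25). SLC8A1, the sodium-calcium exchanger that clears calcium from the cell (ENSG00000183023, chr2 40324410 to 40838193), was at 200, 185 and 210 FPKM against 20.4, 3.62 and 5.19 (4.55 ± 0.43, adjusted p 6.33e-06). PLN was at 1730, 1815 and 1318 FPKM against 182, 30.6 and 23.6. The pump that phospholamban restrains, ATP2A2, differed less, at 624, 777 and 977 FPKM against 174, 98.4 and 118 (2.61 ± 0.23, adjusted p 4.57e-06). The release channel RYR2 (ENSG00000198626, chr1 237205505 to 237997288) was at 83.6, 137 and 78.7 FPKM against 19.6, 18.2 and 5.41 (2.84 ± 0.37), and its partner triadin, TRDN, at 69.9, 78.5 and 68.4 against 7.61, 1.4 and 1.81 (4.24 ± 0.37). JPH2, which ties the reticulum to the cell membrane (2.16 ± 0.22), and ASPH, whose locus encodes junctin (1.36 ± 0.17), were also higher. Among the lower genes was sarcolipin, SLN, an inhibitor of the calcium pump in atrium and skeletal muscle (-2.01 ± 0.61, adjusted p 0.0189). SLN was at 2.9, 26.7 and 4.36 FPKM against 36.3, 53.9 and 17.4, so the populations overlapped through library 14, and it was not called without library 11, 17 or 15 (adjusted p 0.0955, 0.0778 and 0.0892). The inositol trisphosphate receptors ITPR1 (-0.02 ± 0.29) and ITPR2 (-0.65 ± 0.32), FKBP1B (0.22 ± 0.23) and S100A1 (-0.08 ± 0.40) were not called.

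Of 24 ion channel genes tested (3 more were under the minimum) 13 were higher and 3 lower (median 0.98). The lower share was under the 19.6% of all genes. FGF12, an intracellular regulator of sodium channels, differed by 3.67 ± 0.49. The pacemaker channel HCN4 was at 45.5, 34 and 26.7 FPKM against 8.03, 2.34 and 3.76 (2.77 ± 0.33, adjusted p 2.12e-05), with a mean of 36.4 FPKM in GFP+mCherry+ cells. KCNJ5, of the acetylcholine-gated potassium channel (2.88 ± 0.32), KCNIP2, a subunit of the transient outward channel (3.31 ± 0.68), the T-type calcium channel CACNA1G (2.21 ± 0.29) and the repolarising channel KCNH2 (1.35 ± 0.28) were higher as well. KCNJ2, which sets the resting potential of working myocardium, was lower, at 0.404, 1.41 and 1.5 FPKM against 5.61, 3.35 and 7.64 (-1.63 ± 0.27, adjusted p 0.000325). The other lower channels were KCNK1 (-0.82 ± 0.29, adjusted p 0.0413) and the T-type channel CACNA1H (-1.22 ± 0.39, adjusted p 0.023). KCNK1 was not called without library 11 (-0.51, adjusted p 0.194), 17, 15 or 18, nor CACNA1H without library 14, 17, 15 or 18 (adjusted p 0.0713 to 0.109).

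Genes of gap junctions and intercalated discs, the contacts between myocytes, were divided, with 11 of 18 higher and 4 lower (median 1.05). The lower share was near the 19.6% of all genes. The membrane proteins POPDC2 (777, 639 and 1000 FPKM against 112, 17.2 and 30.4, 4.30 ± 0.50) and BVES (3.01 ± 0.32) of the Popeye family were higher. So were the connexins GJA3 (3.25 ± 0.33) and GJA5, connexin 40 of atrium and conduction system (47.9, 30.3 and 34.1 FPKM against 6.19, 2.89 and 2.72, 3.00 ± 0.33), and the desmosome plaque gene PKP2 (1.42 ± 0.18). GJA1, connexin 43 (ENSG00000152661, chr6 121756838 to 121770873), was lower, at 54.8, 73.7 and 39.4 FPKM against 131, 192 and 127 (-1.43 ± 0.26, adjusted p 0.000655). The desmosomal cadherins DSG2 (-1.43 ± 0.23) and DSC2 (-1.21 ± 0.22), also made by epithelia, were lower too. Plakoglobin, JUP (-0.85 ± 0.28, adjusted p 0.0261), was not called without library 14 (-0.54, adjusted p 0.13), 17, 15 or 18. Desmoplakin, DSP (-0.39 ± 0.22), TJP1 (0.13 ± 0.34) and CTNNA1 (0.17 ± 0.19) were not called.

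Of 35 cardiac transcription factors and cofactors 18 were higher, 2 lower and 15 not called (median 0.71). NKX2-5 (ENSG00000183072, chr5 172659112 to 172662360) was at 128, 54.9 and 73.8 FPKM against 11.4, 1.77 and 1.79 (4.15 ± 0.55, adjusted p 5.14e-05). TBX20, a repressor and activator of chamber genes (120, 62.5 and 44.6 FPKM against 10.9, 3.25 and 1.86, 3.75 ± 0.53), and MYOCD, the cofactor of SRF (46.4, 37.9 and 30.4 against 4.95, 1.66 and 1.01, 3.61 ± 0.34), followed. Of the other called factors, MEF2A (1.67 ± 0.20), HOPX (1.37 ± 0.35), GATA4 (151, 75.6 and 82.3 FPKM against 49.9, 27.8 and 44.4, 1.29 ± 0.32) and HAND2 (1.12 ± 0.25) differed less. SMARCD3, a chromatin remodelling subunit (0.71 ± 0.21, adjusted p 0.0149), was not called without library 17 (adjusted p 0.0765). The Notch target HEY1 was lower (-1.02 ± 0.31, adjusted p 0.0194), with library 12 at 63.5 FPKM and libraries 15 and 18 at 20.8 and 20.5. Without library 12 HEY1 was not called (-0.50, adjusted p 0.0637), nor without library 17 (-0.94, adjusted p 0.0625).

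**Figure D3:**
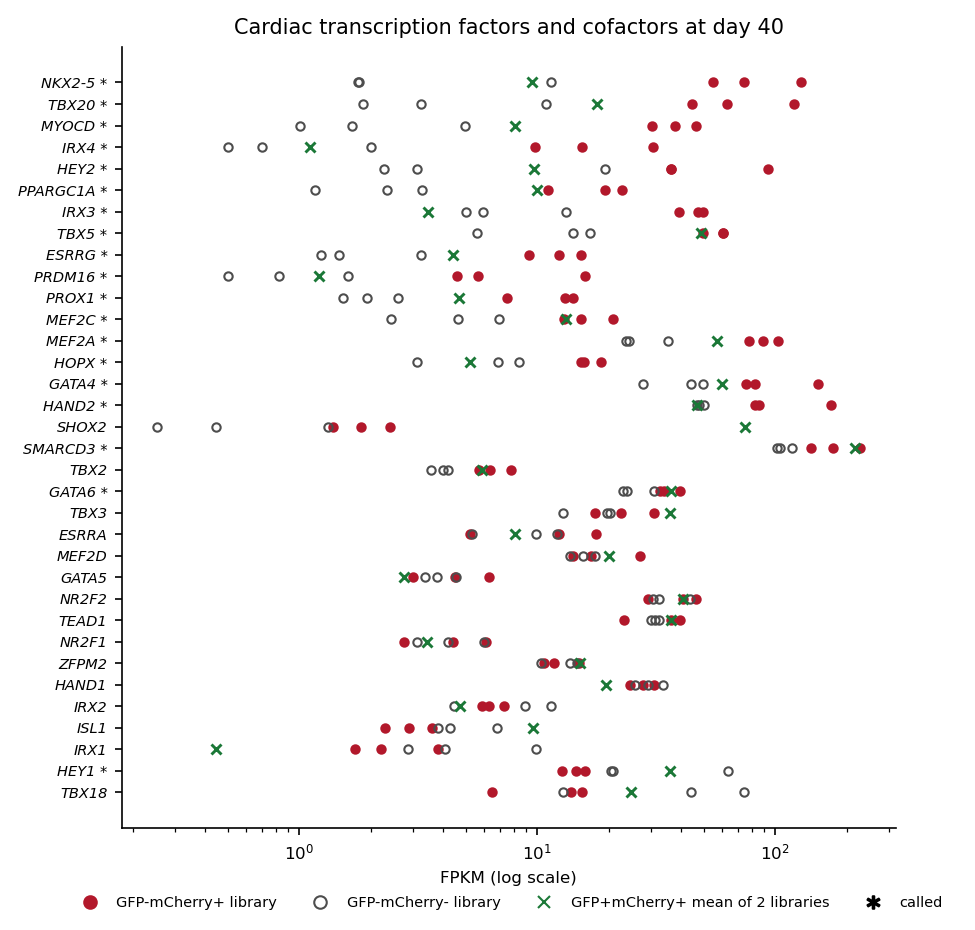
FPKM on a logarithmic axis of cardiac transcription factors and cofactors at day 40 (all but 1 of the 35), red points for the 3 GFP-mCherry+ and open points for the 3 GFP-mCherry- libraries, green crosses for the mean of the 2 GFP+mCherry+ libraries, and a star at called genes, in the order of the difference. NKX2-5 stands at 54.9 to 128 FPKM against 1.77 to 11.4; SHOX2 stays at or under 2.41 FPKM in all 6 libraries, with the cross at 74.3.

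Among 16 secreted cardiac products and their partners tested (2 more were under the minimum) 7 were higher and 4 lower (median 0.99). Their lower share was near the 19.6% of all genes. CORIN, the protease that cuts the precursor of atrial natriuretic peptide, was at 113, 137 and 95.1 FPKM against 11.7, 2.05 and 1.86 (4.58 ± 0.41, adjusted p 4.75e-06). PAM, which amidates peptides and is abundant in atrial granules, was at 505, 756 and 827 FPKM against 120, 87 and 78.3 (2.85 ± 0.24). The natriuretic peptide and its protease were thus high in the same 3 libraries, while its receptors were on the other side. NPR1, the signalling receptor, was at 0.596, 1.00 and 1.1 FPKM against 5.72, 4.89 and 8.49 (-1.94 ± 0.28, adjusted p 9.67e-05), and NPR3, the clearance receptor, at 1.76, 5.33 and 4.52 against 23.7, 15.7 and 25.7 (-2.28 ± 0.40, adjusted p 0.000462). The growth factor gene BMP7 was higher (3.19 ± 0.34), and the peptide precursors SCG2 (-1.86 ± 0.46) and PENK (-2.74 ± 0.44) were lower. VEGFA was not called (0.95 ± 0.42, adjusted p 0.0932).

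Most genes of the respiratory chain and the ATP synthase were higher in mCherry+ cells, with medians near 1 log2 unit. Of 38 genes of complex I 28 were higher and none lower (median 0.88), of 27 genes of complexes II to IV 23 and none (1.15, with 1 more under the minimum), and of 23 genes of the ATP synthase and its carriers 21 and none (1.01). Complex I genes made up 1.09%, 1.01% and 1.26% of the FPKM sum against 0.615%, 0.529% and 0.609%. NDUFA4 was at 805, 773 and 1072 FPKM against 338, 210 and 305 (1.64 ± 0.24, adjusted p 0.000126), and the cytochrome oxidase subunit COX7B at 588, 658 and 785 against 212, 99.1 and 118 (2.30 ± 0.27, adjusted p 1.64e-05). ATP5B, the catalytic beta subunit of ATP synthase, was at 2447, 2137 and 3042 FPKM against 1134, 599 and 767 (1.64 ± 0.22). The ADP/ATP carriers split by isoform. SLC25A4, the form of heart and muscle, was at 257, 165 and 314 FPKM against 49.6, 19.2 and 35.1 (2.84 ± 0.34, adjusted p 2.13e-05), whereas SLC25A6 was not called (186, 84.6 and 86 against 127, 201 and 161, -0.53 ± 0.27, adjusted p 0.145). Also not called were COX6A1, COX7A2L, SDHC and COX4I2, a lung isoform, of complexes II to IV, and ATP5D.

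Of 29 genes of the TCA cycle and pyruvate entry 24 were higher and none lower (median 1.08). IDH3A, a subunit of the rate-limiting isocitrate dehydrogenase, was at 168, 140 and 193 FPKM against 32.6, 22.5 and 33.9 (2.46 ± 0.24, adjusted p 6.52e-06). GOT1 (2.45 ± 0.32) and MDH1 (979, 838 and 982 FPKM against 272, 155 and 215, 2.15 ± 0.22), the cytosolic enzymes of the malate-aspartate shuttle, were higher too. PDK1, a kinase that shuts off pyruvate dehydrogenase, was higher by 2.80 ± 0.37, beside PDHA1, a subunit of that enzyme (1.35 ± 0.21). PDK4, the fasting-induced kinase, was at 2.29 FPKM or less in all 6 libraries and not called, as were SUCLG2, OGDHL, IDH3G and PDP1. Of 29 fatty acid oxidation genes 17 were higher and 1 lower (median 0.85). FABP3, the fatty acid binding protein of heart, stood at 848, 845 and 1001 FPKM against 145, 32.9 and 30.5 (4.06 ± 0.43, adjusted p 1.01e-05), and LPL (1.78 ± 0.30), ETFDH (1.25 ± 0.21), HADHB (1.17 ± 0.17) and ETFA (0.95 ± 0.16) were higher by less. ACADVL, the first enzyme of long-chain oxidation, was at 495, 253 and 543 FPKM against 295, 419 and 548 and was not called (0.00 ± 0.30, adjusted p 0.995). FABP4, of adipocytes and endothelium, was lower (-1.41 ± 0.43, adjusted p 0.0195), and was not called without library 14, 12 or 18 (adjusted p 0.0616 to 0.088).

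Glycolysis and glucose genes were higher in 20 of 29 and lower in 2 (median 1.24). ENO3, muscle enolase, was at 499, 224 and 505 FPKM against 51.6, 24.6 and 36 (3.39 ± 0.38, adjusted p 1.25e-05), and ENO1, the general form, at 2044, 1020 and 1837 against 586, 443 and 904 (1.34 ± 0.34). ALDOC (2.5 ± 0.30), HK1 (2.08 ± 0.27) and PFKM (1.56 ± 0.20) were higher, while GAPDH (0.56 ± 0.32) and ALDOA (0.89 ± 0.38) were not called. Glucose transporters divided. SLC2A4, the insulin-responsive form of muscle and fat, was at 31.7, 13.9 and 13.6 FPKM against 4.12, 1.03 and 1.26 (2.75 ± 0.41). SLC2A1, the general form (ENSG00000117394, chr1 43391052 to 43424530), was lower, at 339, 233 and 228 FPKM against 492, 913 and 749 (-1.41 ± 0.30, adjusted p 0.0018). SLC2A4 gave 8.55%, 5.63% and 5.63% of the FPKM of the 2 transporters in mCherry+ libraries and 0.83%, 0.113% and 0.168% in double-negative ones, and SLC2A1 remained the more abundant in every library. SLC2A3 was also lower (-0.80 ± 0.30, adjusted p 0.0483), but not called without library 11, 17, 15 or 18 (adjusted p 0.081 to 0.178).

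Of 11 creatine, nucleotide and oxygen-store genes tested (3 more were under the minimum) 9 were higher and none lower (median 1.21). CKM was at 395, 173 and 321 FPKM against 38.6, 2.64 and 4.4, and MB at 428, 214 and 176 against 41.7, 2.7 and 2.35, both with library 12 about an order of magnitude above the other double-negative libraries. CKB, the brain form of creatine kinase, was not called (188, 63.2 and 158 FPKM against 116, 331 and 314, -0.89 ± 0.42, adjusted p 0.116), nor was the AMP deaminase AMPD3. The muscle form made up 67.8%, 73.2% and 67% of the FPKM of CKM and CKB in mCherry+ libraries and 25%, 0.791% and 1.38% in double-negative ones. This pair, the enolases and the transporters were set side by side after their values were seen. The mitochondrial creatine kinase CKMT2 (2.72 ± 0.46), and the adenylate kinases AK4 (1.39 ± 0.20) and AK1 (1.10 ± 0.29) were higher. Without library 11 AK1 differed by 0.72 (adjusted p 0.0356).

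On the lower side, the 12 genes with the largest called differences within the same limits (symbols without a gene name left out) are given next. UPK3B, an uroplakin of mesothelium (ENSG00000243566, in a locus of the table at chr7 76139745 to 76648340), was at 7.08, 5.02 and 3.7 FPKM against 32.3, 80.9 and 77.5 (-3.29 ± 0.46, adjusted p 7.61e-05). ITGB4, the integrin of hemidesmosomes, was at 3.00, 2.23 and 1.7 FPKM against 16.4, 34.9 and 33.9 (-3.10 ± 0.41). EPS8L1, an actin regulator, had the higher level, 22, 24.8 and 21.7 FPKM against 174, 184 and 245 (-3.07 ± 0.30, adjusted p 6.52e-06). The others included TM4SF4 (-3.10 ± 0.44), AP1M2, the epithelial adaptor subunit (-3.07 ± 0.32), the desmosomal plakophilin PKP3 (-3.04 ± 0.43), the serine protease KLK8 (-3.03 ± 0.31), the simple epithelial keratin KRT7 (-2.94 ± 0.57), PODXL (-2.93 ± 0.33), SERPINA1 (-2.85 ± 0.58) and ASPHD1 (-2.84 ± 0.35). DIO1, a thyroid hormone deiodinase, rested on 1 library, at 108 FPKM in library 12 and 5.55 and 2.16 FPKM in libraries 15 and 18, against 1.16, 0.0658 and 0.0418 (-3.29 ± 1.01, adjusted p 0.0192). Without library 12 its difference was -1.76 (adjusted p 0.0841), and it was also not called without library 14 or 17 (adjusted p 0.0511 and 0.0578).

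Epithelial genes were lower in 22 of 26 and higher in none (median -1.96), and 1 more was under the minimum. SPINT1, an inhibitor of membrane serine proteases (ENSG00000166145, chr15 41136216 to 41150405), was at 16.7, 29.2 and 17 FPKM against 123, 137 and 117 (-2.57 ± 0.18, adjusted p 3.29e-06). CDH1, E-cadherin (ENSG00000039068, chr16 68771128 to 68869451), was at 15.4, 26.9 and 22.4 FPKM against 102, 165 and 141 (-2.60 ± 0.29, adjusted p 1.25e-05). The membrane protease PRSS8 (-2.49 ± 0.24) and the recycling GTPase RAB25 (-2.36 ± 0.31) were lower by similar amounts. The abundant keratins differed less. KRT18 was at 156, 125 and 225 FPKM against 443, 458 and 753 (-1.70 ± 0.29), and KRT8 (-1.22 ± 0.29) and KRT19 (-1.43 ± 0.32) were nearer. Not called were ELF3, KRT23, GRHL1 and CLDN6.

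Epicardial and mesothelial genes were lower in 18 of 20 and higher in none (median -2.10), and 1 more was under the minimum. BNC1, a zinc finger factor of mesothelium, was at 9.6, 19.3 and 11.4 FPKM against 100, 81.5 and 87.2 (-2.70 ± 0.29, adjusted p 1.02e-05). MSLN, mesothelin, was at 0.649, 0.507 and 0.723 FPKM against 6.22, 7.13 and 9.37 (-2.38 ± 0.26), the Wnt amplifier RSPO1 was lower by as much (-2.22 ± 0.26), and ALDH1A2, which makes retinoic acid in epicardium, was at 15.1, 22.7 and 20.1 against 127, 61.9 and 146 (-2.40 ± 0.48). PODXL was at 25.5, 68.1 and 32.4 FPKM against 271, 319 and 307. Smaller were the differences of PDPN (-1.66 ± 0.44) and ezrin, EZR (-0.66 ± 0.18). CALB2 and ALDH1A1 were not called; ALDH1A1 was at 25.5 FPKM in library 14 and at 1.63 and 1.82 in libraries 11 and 17.

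Fibrillar and basement membrane collagens were lower in 17 of 25 and higher in 2 (median -1.72), and 1 more was under the minimum. COL1A1 (ENSG00000108821, chr17 48260650 to 48278993) was at 258, 403 and 237 FPKM against 1216, 3421 and 1752 (-2.73 ± 0.30, adjusted p 1.17e-05). COL3A1 was at 930, 3769 and 1018 FPKM against 6111, 11712 and 5664 (-2.27 ± 0.44), and COL1A2 at 368, 1617 and 541 against 3262, 4265 and 1865 (-2.11 ± 0.41). Library 14 held the highest values of the mCherry+ libraries in all 3, without reaching the double-negative range. COL5A1 (-2.10 ± 0.35), COL6A2 (-1.93 ± 0.28), COL5A2 (-1.92 ± 0.32) and COL8A1 (-1.79 ± 0.25) were lower too. The 2 higher collagens were COL7A1, of anchoring fibrils (1.88 ± 0.55, adjusted p 0.0157), and COL2A1, of cartilage (0.92 ± 0.30, adjusted p 0.0269). COL7A1 was not called without library 11, 17 or 15 (adjusted p 0.0683, 0.0755 and 0.0856), nor COL2A1 without library 11, 12 or 15 (adjusted p 0.0862, 0.0642 and 0.0813).

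Matrix glycoproteins and proteoglycans were lower in 23 of 41 and higher in 4 (median -1.56). SPARC, a collagen-binding protein, was at 943, 2221 and 943 FPKM against 4659, 9046 and 4929 (-2.24 ± 0.39, adjusted p 0.000408). ELN, elastin, was at 1.26, 3.62 and 3.53 FPKM against 17.7, 22.4 and 22.3 (-2.59 ± 0.32), and the proteoglycans DCN (-2.12 ± 0.43) and LUM (-1.83 ± 0.43), with THBS2 (-1.93 ± 0.30) and MFAP2 (-1.45 ± 0.18), were on the same side. FN1, fibronectin, was at 409, 2418 and 911 FPKM against 4152, 4565 and 3329 and was not called (-2.04 ± 2.43, adjusted p 0.556). With values listed at 0 in other groups set to missing, the FN1 difference was the same with a smaller error (± 0.48, adjusted p 0.00441). The laminin genes LAMA2 and LAMA4 went the other way. LAMA2, of merosin, was at 99.8, 112 and 89.6 FPKM against 23.1, 20.4 and 10 (2.5 ± 0.29, adjusted p 1.97e-05), and LAMA4 at 36.3, 46.2 and 36.2 against 16.2, 12 and 11.4 (1.52 ± 0.28). The other higher genes were FBN2 (0.72 ± 0.22, adjusted p 0.0173), not called without library 14 or 12 (adjusted p 0.0633 and 0.0538), and NID1 (0.72 ± 0.27, adjusted p 0.0484), not called without library 11, 14, 17, 15 or 18 (0.43 and adjusted p 0.239 without library 18).

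Of 30 matrix remodelling genes tested 22 were lower and 1 higher (median -1.08), and of 25 fibroblast genes 15 were lower and 2 higher (median -0.99), with 3 more under the minimum in each list. MMP14, the membrane collagenase, was at 25.2, 50.7 and 31.1 FPKM against 152, 171 and 135 (-2.12 ± 0.25, adjusted p 2.22e-05), and MMP2, which it activates, at 51.2, 152 and 76 against 386, 413 and 243 (-2.00 ± 0.36). Their inhibitors TIMP1 (-1.48 ± 0.26) and TIMP2 (-0.88 ± 0.15) were lower as well, and MMP15, another membrane metalloproteinase, was higher (111, 49.6 and 82.1 FPKM against 20.3, 27.6 and 20.5, 1.72 ± 0.25). Among fibroblast markers THY1 (-2.11 ± 0.32), DDR2 (-1.73 ± 0.29), IGFBP3 (-2.01 ± 0.35) and IGFBP4 (-1.46 ± 0.26) were lower. VIM, vimentin, was not called (309, 380 and 297 FPKM against 574, 464 and 355, -0.48 ± 0.18, adjusted p 0.0552), nor was IGF2 (-0.37 ± 0.24). The 2 higher markers were the chemokine CXCL12 (0.84 ± 0.23, adjusted p 0.0116), not called without library 15 (0.70, adjusted p 0.0613), and S100A4 (0.81 ± 0.23, adjusted p 0.0126), not called without library 18 (0.70, adjusted p 0.0553).

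Of 20 smooth muscle and pericyte genes 6 were higher and 4 lower (median -0.13), and the lower share was near the 19.6% of all genes. Calponin, CNN1, was at 193, 179 and 444 FPKM against 53.2, 34 and 81.7 (2.21 ± 0.36, adjusted p 0.000272), and the light chain MYL9 at 904, 479 and 1042 against 197, 182 and 339 (1.73 ± 0.32); both are also made by immature cardiomyocytes. NOTCH3, of vascular mural cells, was at 11.5, 7.04 and 10.1 FPKM against 36.8, 56.1 and 72.9 (-2.39 ± 0.33, adjusted p 7.7e-05), and caldesmon, CALD1, was lower (-1.44 ± 0.31). TAGLN was not called (-1.12 ± 0.56, adjusted p 0.142).

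Endoderm and liver genes were lower in 18 of 23 and higher in none (median -1.85), and 4 more were under the minimum. AFP, alpha-fetoprotein, was at 116, 279 and 117 FPKM against 645, 1380 and 1110 (-2.67 ± 0.53, adjusted p 0.00114). APOA2, an apolipoprotein of high density lipoprotein (ENSG00000158874, chr1 161192082 to 161193421), was at 11.6, 15.4 and 10.4 FPKM against 92.3, 106 and 84.7 (-2.83 ± 0.35, adjusted p 2.73e-05), APOA1 was lower (-2.57 ± 0.40), and vitronectin, VTN, was at 8.79, 11 and 8.59 FPKM against 29.1, 74.3 and 57.8 (-2.30 ± 0.27). GATA3 (-1.96 ± 0.32) and the fibrinogen chain FGB (-2.41 ± 0.56) were lower. TTR was at 16.3, 32.8 and 16.7 FPKM against 53.7, 147 and 152 without passing the threshold (-2.30 ± 0.91, adjusted p 0.0619), and ALB, AHSG, TF and APOA4 were not called.

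Endothelial and endocardial genes were lower in 12 of 17 and higher in none (median -1.24), at low levels, and 4 more were under the minimum. ERG, an endothelial transcription factor, was at 0.52, 1.13 and 1.36 FPKM against 4.33, 3.65 and 4.66 (-1.40 ± 0.26, adjusted p 0.00072), and PLVAP (-2.16 ± 0.51), EGFL7 (-1.94 ± 0.37), the angiopoietin receptor TEK (-1.65 ± 0.40) and ROBO4 (-0.89 ± 0.20) were lower. KDR, the VEGF receptor also found in mesoderm, was at 13.5, 42.7 and 18.4 FPKM against 78.9, 128 and 62.4 (-1.91 ± 0.59, adjusted p 0.0211) and was not called without library 11, 17 or 15 (adjusted p 0.0861, 0.0643 and 0.0903). FLI1, EMCN, MMRN2, NOS3 and TIE1 were not called. The HOX genes, which mark position along the body axis, were lower in 15 of 19 and higher in none (median -1.43), with 11 more under the minimum. HOXB3 was at 13.1, 27.5 and 14.3 FPKM against 58.4, 54.4 and 58.6 (-1.66 ± 0.35, adjusted p 0.00185), HOXC4 at 1.06, 4.48 and 1.65 against 13.5, 12.5 and 11.1 (-2.10 ± 0.37), and HOXB2 (-1.09 ± 0.24), HOXB4 (-1.54 ± 0.28) and HOXB5 (-1.65 ± 0.29) were lower too. HOXB1, HOXC6, HOXC8 and HOXC9 were not called.

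Genes that mark 1 population were still present in the other, to a degree that differed between libraries. The median thick filament gene stood in double-negative libraries 12, 15 and 18 at 13.4%, 2.5% and 2.6% of its mCherry+ mean, and the median Z-disc gene at 16.9%, 4.69% and 5.04%. In mCherry+ libraries 11, 14 and 17 the median epithelial gene stood at 14.4%, 32.5% and 20.1% of its double-negative mean, the median matrix glycoprotein gene at 17.8%, 58.1% and 31.5%, and the median HOX gene at 8.33%, 36.2% and 16.8%. Library 12 was thus the highest of its population for the thick filament and Z-disc lists, and library 14 the highest of its population for the epithelial, matrix glycoprotein and HOX lists. The part of cells of the other population in libraries 12 and 14 was not tested. With both libraries left out, 4364 genes were called, and the counts were 13 higher of 15 for the thick filament (median 5.26), 17 lower of 25 for collagens (-1.72), 21 lower of 26 for epithelium (-2.10), 19 lower of 23 for endoderm and liver (-2.12) and 31 higher of 38 for complex I (1.04). Differences were smaller in other lists. Endothelial and endocardial genes were lower in 10 of 17 (-1.08, against 12 and -1.24 with all libraries). Gap junction and intercalated disc genes were higher in 10 of 18 (0.94, against 11 and 1.05).

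**Figure D4:**
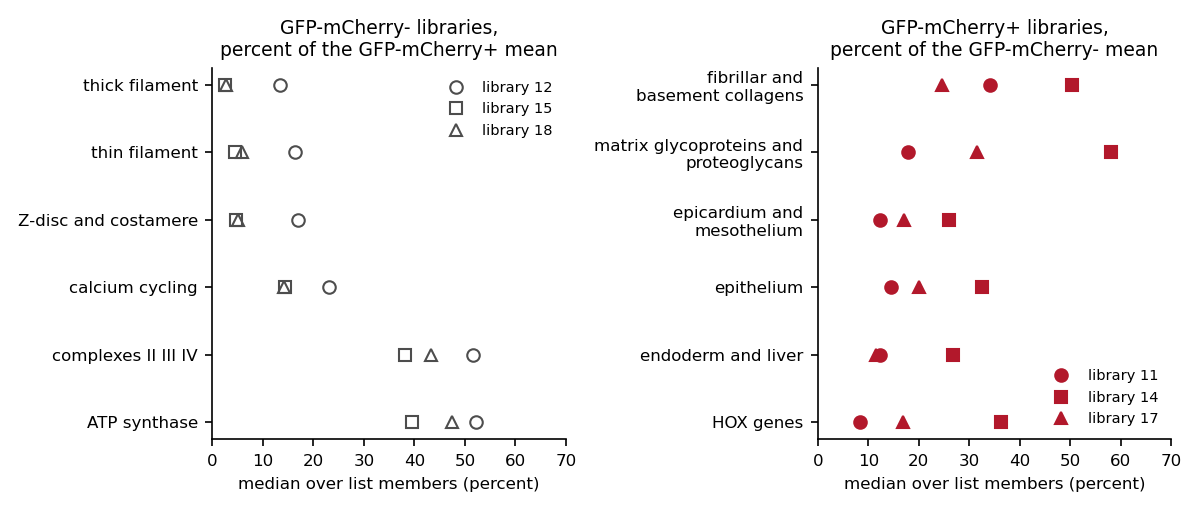
Median over the members of a list of each member's FPKM, as a percent of its mean in the other population: the 3 GFP-mCherry- libraries against the GFP-mCherry+ mean (left) and the 3 GFP-mCherry+ libraries against the GFP-mCherry- mean (right), with axes from 0. Library 12 lies farthest right on the left side (13.4% for the thick filament) and library 14 on the right side (58.1% for matrix glycoproteins and proteoglycans).

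Of 47 growth factor and ligand genes tested (1 more was under the minimum) 9 were higher and 23 lower (median -0.91), beside 14.2% and 19.6% of all genes. Their higher share was near that background, and the lower share was above it. BMP5 was at 145, 141 and 126 FPKM against 33.4, 11.5 and 19.2 (2.75 ± 0.36, adjusted p 5.19e-05), and the Wnt pathway inhibitor DKK3 at 238, 268 and 216 against 90.2, 73.3 and 46.9 (1.81 ± 0.24). The non-canonical Wnt ligands WNT5A (1.66 ± 0.23) and WNT5B (1.14 ± 0.21), and VEGFC (1.88 ± 0.37) and VEGFB (0.88 ± 0.22) of the VEGF family, were higher. WNT2B was at 3.61, 4.9 and 4.82 FPKM against 27.1, 27.2 and 33 (-2.47 ± 0.28, adjusted p 1.29e-05), TGFB3 at 7.37, 10 and 9.28 against 52.1, 38 and 58.9 (-2.34 ± 0.25), and EFNB2 (-2.06 ± 0.25) and PDGFB (-1.60 ± 0.18) were lower as well. Of 20 chemokine and complement genes tested (2 more were under the minimum) 3 were higher, a share near the background, and 8 lower (median -0.80). Without library 17 the counts were 1 and 6. The complement regulators SERPING1 (-2.28 ± 0.33) and CFI (-2.42 ± 0.44) and the chemokine CXCL14 (-2.38 ± 0.42) were lower, and C4A was higher (1.61 ± 0.24). C4A has a near-identical neighbour, C4B, so how its reads were split is uncertain.

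Few cell cycle genes were called, 1 of 46 higher and 4 lower (median -0.01), both under the shares of all genes (14.2% and 19.6%). The higher gene was TYMS, thymidylate synthase, at 90.1, 85.9 and 189 FPKM against 48.1, 30.4 and 53.2 (1.39 ± 0.40, adjusted p 0.0144), which was not called without library 17 or 15 (adjusted p 0.0778 and 0.0728). Inhibitors of cyclin-dependent kinases were among the lower genes. CDKN2B was at 5.33, 13.9 and 9.76 FPKM against 30.6, 50.6 and 54 (-2.16 ± 0.30, adjusted p 7.57e-05), and CDKN2A at 1.33, 3.16 and 2.21 against 7.76, 10.2 and 6.13 (-1.50 ± 0.34). CDKN1C (-1.50 ± 0.45, adjusted p 0.0164) was not called without library 11, 17 or 15 (adjusted p 0.0681, 0.0745 and 0.094). The replication genes MCM4 (-0.26 ± 0.34) and MCM7 (-0.05 ± 0.32) were not called.

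The series concerns anthracyclines, cancer drugs that injure heart muscle, and genes that handle them or the oxidants they form were compared at baseline, without a drug. Of 23 such genes tested (9 more were under the minimum) 4 were higher and 9 lower (median -0.37), against 14.2% and 19.6% of all genes. The share of higher genes was near that background, and the share of lower genes was above it. ABCB1, the efflux pump P-glycoprotein (ENSG00000085563, chr7 87133175 to 87342611), was at 0.813, 2.23 and 2.02 FPKM against 16, 7.18 and 23.8 (-2.54 ± 0.38, adjusted p 0.000128). AKR1B1, an aldo-keto reductase, was at 197, 191 and 244 FPKM against 65, 57.2 and 69 (1.71 ± 0.19, adjusted p 1.11e-05), and SOD2, the mitochondrial superoxide dismutase, at 113, 87.6 and 77 against 31.6, 28.9 and 27.3 (1.61 ± 0.25). These genes were picked from the list by a rule that used their values, and 10 of the 23 genes were not called. Without library 15 or 18 the list held 3 higher and 6 lower genes. HFE, of iron balance, was lower (-1.31 ± 0.29). The nucleoside transporter SLC28A3 was higher (1.52 ± 0.48, adjusted p 0.0219) but not called without library 11 or 18 (adjusted p 0.0962 and 0.104), and SOD1 (0.65 ± 0.18, adjusted p 0.00972) not without library 15 (adjusted p 0.0618). GSTP1 was lower (-0.79 ± 0.24, adjusted p 0.0177), but not called without library 14 or 18 (adjusted p 0.0666 and 0.0989).

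Of 26 genes often used as references, 4 were higher, 2 lower and 20 not called (median 0.18), near or under the shares of all genes (14.2% and 19.6%). No gene of these was lower without library 14 or 18. SDHA (1.58 ± 0.25), PGK1 (1.30 ± 0.29) and HPRT1 (1.23 ± 0.27) were higher, and B2M (0.51 ± 0.34), GAPDH and RPLP0 (-0.11 ± 0.26) were not called. ACTB was lower (-0.76 ± 0.25, adjusted p 0.0302), with library 18 at 4386 FPKM, and was not called without library 18 (-0.42, adjusted p 0.167) or 14 (adjusted p 0.109). Among 21 blood and macrophage genes, 2 were higher and 2 lower, under the shares of all genes, and each of these 4 calls was lost without at least 1 library: 0 were higher without library 18, and 0 lower without library 11, 17 or 15. Of 12 neuronal and neural crest genes, 1 was higher, the adhesion molecule NCAM1 (163, 164 and 127 FPKM against 62.1, 53.9 and 50.5, 1.42 ± 0.25), which myocytes also make, and 3 were lower. That lower share was near the 19.6% of all genes, and only 1 neuronal gene was lower without library 11 or 15. Of 5 pigment cell genes 2 were higher, MITF (28.6, 24.7 and 18.8 FPKM against 5.9, 6.12 and 3.68, 2.01 ± 0.23) and RPE65 (1.82 ± 0.26). Of 6 pluripotency genes 1 was higher and 3 lower, all under 8 FPKM, and of 7 lung epithelium genes 1 was higher, HOPX, and 1 lower. Without library 11, 17 or 15 the pluripotency counts were 0 higher and 2 lower. The pigment cell, pluripotency and lung epithelium lists are too small to set against the shares of all genes (14.2% and 19.6%). Under the minimum were 7 blood and macrophage, 13 neuronal, 5 pigment cell, 9 pluripotency and 12 lung epithelium genes.

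The same sort at day 25, from separate libraries, gave 4073 calls among the same genes (29.1%), 1761 higher and 2312 lower. Of the genes called at day 40, 4572 of 4729 had the same sign at day 25, and 2978 were called with the same sign on both days, 63.0% of the calls of day 40 and 73.1% of those of day 25. The opposite sign was called for 2 genes, which are named for that reason after their values were seen. LZTS1, a leucine zipper protein, was at 1.77, 0.916 and 1.42 FPKM against 2.53, 4.67 and 4.03 at day 40 (-0.99 ± 0.22, adjusted p 0.00276), with a difference of 0.74 (adjusted p 0.019) at day 25. F10, coagulation factor X, was at 4.57, 4.02 and 4 FPKM against 5.05, 9.39 and 7.79 (-0.66 ± 0.24, adjusted p 0.0466), with a difference of 0.97 (adjusted p 0.00657) at day 25. In the direct test of that change neither gene passed the threshold (adjusted p 0.163 and 0.193). F10 was not called at day 40 without library 11, 14, 17, 15 or 18 (adjusted p 0.0668 to 0.197).

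A direct test of the change of the difference from day 25 to day 40 called 1 gene (0.00714%), while 906 had an unadjusted p under 0.05. No gene was called without library 11, 17, 15 or 18, and 15 were called without library 12.

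No member of any list had a called change, so list counts on the 2 days are set side by side without a test. Thick filament genes had a median of 5.31 at day 25 and 4.21 at day 40, and epithelial genes of -2.03 and -1.96, with 22 of 26 lower on both days. Endoderm and liver genes were lower in 2 of 23 at day 25 (median -0.31) and in 18 at day 40 (-1.85), and collagens in 7 and 17 of 25 (-0.33 and -1.72). APOA2, for example, had means of 28.2 ± 15.9 and 30.1 ± 7.58 FPKM (SD, n = 3 each) in mCherry+ and double-negative cells at day 25, and of 12.5 ± 2.58 and 94.4 ± 10.9 at day 40. Its change of -2.62 ± 0.49 had an adjusted p of 0.169, and that of COL1A1, -1.63 ± 0.42, an adjusted p of 0.401.

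**Figure D5:**
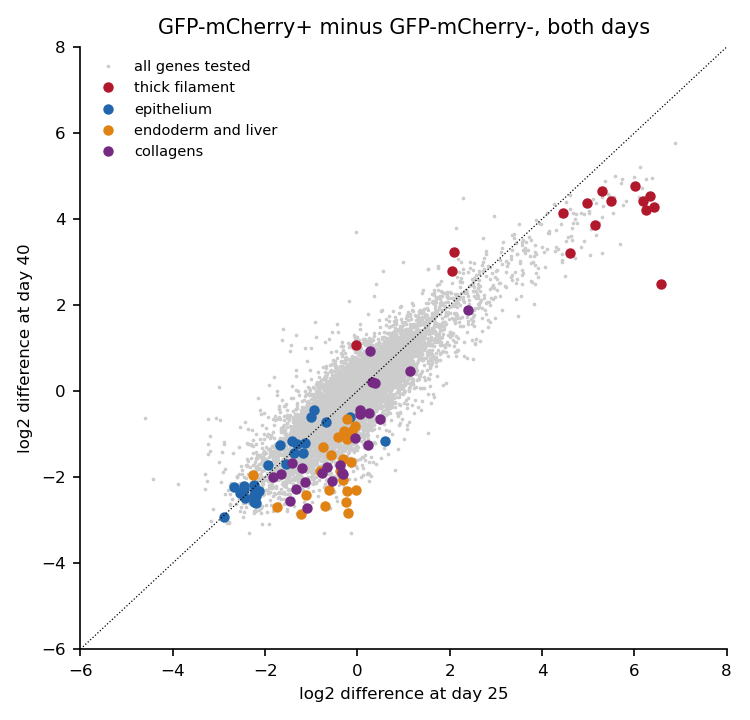
Difference GFP-mCherry+ minus GFP-mCherry- on the log2(FPKM + 1) scale at day 25 (horizontal) and day 40 (vertical), 1 point for each of 14011 genes, with members of 4 lists coloured and a dotted line at equal values. Thick filament genes lie at the upper right (medians 5.31 and 4.21) and epithelial genes at the lower left (-2.03 and -1.96), while endoderm and liver genes spread downward from near 0 at day 25 (-0.31 and -1.85).

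The GFP+mCherry+ cells of day 40 share no library with either population and are given as means of 2 libraries beside the mCherry+ and double-negative means. TNNT2 was at 2335 FPKM, between 6445 and 377, ACTN2 at 86.1, between 495 and 27.4, and NPPA at 237, between 1431 and 35.9. NKX2-5 was at 9.47 FPKM, between 85.5 and 4.99, and CKM at 27, between 296 and 15.2. Levels of the other side lay between as well in COL1A1 (725 FPKM, between 299 and 2130) and UPK3B (33.1, between 5.27 and 63.6), and near the double-negative level in CDH1 (131 FPKM, with 21.6 and 136) and GJA1 (142 FPKM, with 56 and 150). ABCB1 was at 2.88 FPKM, near the mCherry+ mean of 1.69 and under the double-negative mean of 15.7.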

How the data were processed

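Expression was measured by RNA-seq, with TruSeq RNA libraries per the labels' protocols. Reads were processed against hg19 with cutadapt, bcl2fastq 2.19, Cufflinks 2.1.1 and STAR 2.5.2b, per the submitters' processing notes, which give no parameters. The authors deposited 1 value per gene and library, taken here as FPKM, the usual output of Cufflinks, because no header states the unit. Fragment counts and depth are unknown, so no counting intervals were computed. Rows of a name were summed (150 rows merged, 20368 rows to 20218 genes), and 0 columns belonged to other samples. Gene positions are the table's loci on hg19, counted from 1; promoters are on GRCh38.p14 and were not mixed with them.

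Values were used as log2(FPKM + 1) with no further scaling. Limma 3.58.1 (R 4.3.3, moderated variances with an intensity trend, residual df 11) fitted a mean for each of the 6 groups to all 17 libraries, two-sided, with Benjamini-Hochberg adjustment over 14011 genes. Genes and lists were chosen with earlier results of these data known. Named are 7 reporter and marker genes (SHOX2, MYH6, TNNT2, ACTN2, RYR2, MYL7, NKX2-5), the 12 largest called differences in each direction (at least 5 FPKM in the higher group, no overlap), up to 4 members of a list by adjusted p and 4 by level, called members against a list's main direction, and up to 6 genes with a called change between days. Uncalled members named to account for a list, and SLC2A4, F10 and LZTS1, were added after values were seen. Tested on simulated data with 14011 genes, the day 40 comparison recovered 44% of changes of 1 and 96% of changes of 2 log2 units, with 13 false calls. In the simulation 100 genes changed by each size, far fewer than the 4729 called in the data. The rates may therefore differ for the data themselves. Alternatives were a pseudocount of 0.1, other filters (none, 5 FPKM, all libraries), median-of-ratios and quantile scaling, fewer libraries, quality weights, a replicate block and 0 set to missing. PECAM1 and NEFL are not analysed here. Some genes that the naming rule selects, the 1 gene with a called change between days included, are not reported here.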

Additional observations from a re-analysis of the deposited data

How the results depend on the processing

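The count of genes called at day 40, 4729, stayed within 1.5 times under every alternative run, from 3308 with only the 6 libraries in the fit to 5118 with a replicate block; leaving out each library gave 3402 to 4611 (1381 to 1947 higher, 2021 to 2683 lower). Higher and lower calls were 2419 and 2439 after median-of-ratios scaling and 2343 and 2330 after quantile normalization, against 1985 and 2744. The day 25 count, 4073, was 7340 with sample quality weights and 3988 to 4321 without single libraries of day 40. The single called change between the days was 0 genes with the replicate block, quantile normalization, median-of-ratios scaling, a pseudocount of 0.1, no filter or a 5 FPKM filter, 35 with quality weights and 9 without libraries 12 and 14, and 0 to 15 without single libraries (15 without library 12, 0 without library 11, 17, 15 or 18). The cause was not tested. The replicate block joined consecutive library numbers; deviations of same-set libraries correlated at -0.128, 0.109 and 0.466, not every library correlated best with its own set, and the samples share only a number. Of 262 named genes that were called, 48 were not called without at least 1 library, 212 were called under every alternative, and none changed sign in a call. Depth is not in the files, so its effect on low genes cannot be given.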
